A study of Mus musculus with 3 samples.

Results

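Tnf, Osm, Il6 and Il10 are 4 cytokine genes, taken here as their rows among the 27998 genes of 3 single-cell count tables, and all 4 were measured in every table. The cells were macrophages from the sciatic nerve, and the mice were of the inbred strain C57BL/6. One library came from uninjured nerve (steady state), one from nerve 1 day after a crush and one from nerve 5 days after a crush, an injury that severs the axons but leaves the nerve sheath in place. For age, sex, animals per library and the sort of the cells, nothing is given in the sources used here. Each time is therefore a single library with no replicate: the intervals below are exact 95% intervals for counting error only, no test was made, and no value shows how much animals vary.

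TNF is made as a membrane protein that the protease Adam17 releases. It acts through the receptors Tnfrsf1a and Tnfrsf1b and switches on NF-kappaB, which in turn raises its own inhibitors Nfkbia and Tnfaip3. Oncostatin M (Osm) and IL-6 belong to one cytokine family: both signal through the shared receptor chain gp130 (Il6st) and Stat3, oncostatin M with Osmr and IL-6 with Il6ra. IL-10 acts through Il10ra and Il10rb, also by way of Stat3, and restrains macrophage cytokine production. In injured peripheral nerve, TNF and IL-6 are known from the early response to axon loss and IL-10 from its ending.

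All 4 are short-lived messages. Zfp36 (tristetraprolin) and its relatives bind AU-rich stretches of the 3′ UTR and speed the decay of the RNA, so the stretch of each gene with the most ATTTA pentamers is shown here, written as DNA 5′ to 3′ with ATTTA in capitals. The 30-base windows come from GENCODE M21 transcripts on GRCm38 (mm10), and each lies in the last exon, within the 3′ UTR.

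Tnf: ttATTTAttATTTATTTAttATTTATTTAt

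Osm: ttttatATTTAtaaggcctATTTAtaatgt

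Il6: aagttaATTTAtgattgatATTTAttattt

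Il10: ctctctccgaaatATTTAttacctctgata

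The windows lie at chr17:35199678-35199707 on the minus strand for Tnf, chr11:4240945-4240974 on the plus strand for Osm, chr5:30019721-30019750 on the plus strand for Il6 and chr1:131024384-131024413 on the plus strand for Il10. The genes themselves span chr17:35199381-35202007, chr11:4236420-4241026, chr5:30013114-30019981 and chr1:131019845-131024974. The Tnf stretch is the densest, with 5 overlapping ATTTA copies in the window, against 2 in the Osm and Il6 windows and 1 in the Il10 window. The stricter heptamer TATTTAT, which contains the pentamer, was found on the sense strand 8 times in the 764-base 3′ UTR of Tnf. It was found 3 times in that of Osm, 1 time in that of Il6 and 4 times in that of Il10. Of 20979 genes with a 3′ UTR, 24.3% hold at least 1 TATTTAT, and among genes with a 3′ UTR of like length the share is 19.4% for Tnf, 24.9% for Osm, 11.1% for Il6 and 18.9% for Il10. A match of letters is a description and shows no binding.

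After filtering, 718 steady-state, 2793 day 1 and 2051 day 5 cells remained, with 1625316, 7963091 and 5500267 unique molecular identifiers (UMIs, each counting 1 captured RNA molecule). Median UMIs per cell were 2235, 2555 and 2470. All 8 core macrophage genes, among them Csf1r and Adgre1, were found in each library. Neutrophil genes summed to 125, 87.2 and 39.3 counts per 1000000 UMIs (CPM). Mmp9 led at steady state and on day 1 (113 and 36.4 CPM) and Csf3r on day 5 (25.8 CPM). S100a8 was found in 0, 143 and 7 cells, and on day 1 it was at 29.9 CPM in 5.12% of cells. S100a9 was found in 0, 11 and 0 cells, and Ly6g, Camp and Ngp were at 0. T or NK cell genes summed to at most 2.0 CPM and mast cell genes to at most 1.64 CPM, with Cd3e, Fcer1a and Mcpt4 at 0. Genes of B cells, Schwann cells, endothelial cells and fibroblasts had higher sums, each highest at steady state. There they summed to 48.6, 39.4, 32.6 and 30.1 CPM, led by Cd79b (46.8 CPM), Mbp (32.6 CPM), Egfl7 (22.1 CPM) and Dcn (17.8 CPM). Their part in the levels of the 4 cytokine genes was not tested. Between libraries, 2 barcodes were shared by steady state and day 1, 3 by steady state and day 5, and 11 by day 1 and day 5.

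Tnf and Osm moved in opposite directions. Tnf was highest in uninjured nerve, whereas Osm was low there and high on day 1. Il10 dipped on day 1, and Il6 was close to the limit of detection at every time. Of the 3 genes that reached 10 CPM in either library, Osm was more than 2-fold higher and Tnf more than 2-fold lower on day 1 than at steady state, and the same held for day 5. Of all genes that reached 10 CPM, 16.7% passed 2-fold upward and 14.8% downward on day 1, and 10.0% and 11.0% on day 5. Between day 5 and day 1 none of the 3 genes passed 2-fold, where 4.93% of genes were higher and 5.47% lower. The comparisons with steady state share that library.

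Tnf had 165 UMIs at steady state, 271 on day 1 and 253 on day 5, which is 102 CPM (interval 86.6 to 118), 34.0 CPM (30.1 to 38.3) and 46.0 CPM (40.5 to 52.0). The steady-state interval lies above both others, and those of day 1 and day 5 do not overlap. Tnf was 2.98-fold lower on day 1 than at steady state (interval 2.44 to 3.63, log2 ratio -1.58) and 2.21-fold lower on day 5 (1.80 to 2.70, log2 ratio -1.14). From day 1 to day 5 it was 1.35-fold higher (1.13 to 1.61). Within a library summed over cells, fewer expressing cells and less RNA per cell cannot be told apart, so the count of cells is given next.

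Tnf was found in 83 of 718 cells at steady state (11.6%, interval 9.31 to 14.1), in 173 of 2793 on day 1 (6.19%, 5.33 to 7.15) and in 150 of 2051 on day 5 (7.31%, 6.22 to 8.53). The detecting cells also held fewer copies after injury. Of the Tnf-positive cells, 26 of 83 had 3 or more UMIs at steady state, against 18 of 173 on day 1 and 21 of 150 on day 5. Because deep cells detect more genes, each cell was also thinned in expectation to 1000 UMIs, which left out 90, 297 and 282 shallower cells. The thinned shares were 7.46%, 2.84% and 3.67%, so the order of the libraries was the same, and the ratio to steady state was wider while the difference in percentage points was smaller.

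Osm had 48 UMIs at steady state, 1904 on day 1 and 711 on day 5, or 29.5 CPM (21.8 to 39.2), 239 CPM (228 to 250) and 129 CPM (120 to 139). None of these intervals overlap. Day 1 was 8.10-fold above steady state (6.08 to 11.02, log2 ratio 3.02), day 5 was 4.38-fold above it (3.27 to 5.99, log2 ratio 2.13), and day 5 was 1.85-fold below day 1 (1.70 to 2.02, log2 ratio -0.89). The share of cells with Osm followed the same order, at 3.34% (2.15 to 4.93), 30.5% (28.8 to 32.3) and 18.1% (16.5 to 19.9), and after thinning at 2.21%, 16.7% and 9.04%. Most of the detecting cells held few copies: on day 1, 440 of 852 had a single UMI, 236 had 3 or more, and the richest had 23.

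Il10 had 28, 81 and 107 UMIs, which gave 17.2 CPM (11.5 to 24.9) at steady state, 10.2 CPM (8.08 to 12.6) on day 1 and 19.5 CPM (15.9 to 23.5) on day 5. Day 1 was 1.69-fold below steady state (1.06 to 2.63) and day 5 was 1.91-fold above day 1 (1.42 to 2.58). Steady state and day 5 were not separated by their counts, with a ratio of 1.13 (0.74 to 1.78). Il10 was found in 15, 49 and 63 cells, or 2.09%, 1.75% and 3.07%, and the intervals of the shares overlapped between steady state and each injury time.

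Il6 gave only 7, 14 and 20 UMIs, from 5, 7 and 11 cells. Its levels were 4.31 CPM (1.73 to 8.87), 1.76 CPM (0.96 to 2.95) and 3.64 CPM (2.22 to 5.62), where 3 UMIs correspond to 1.85, 0.377 and 0.545 CPM. Every interval of a ratio between libraries included 1: day 1 was 2.45-fold below steady state (0.84 to 6.49 as a fold), and day 5 over day 1 was 2.07 (0.99 to 4.43). A change in Il6 was thus not detectable at this depth. On day 1, a single monocyte-like cell with 5 Il6 UMIs and another cell with 3 gave 8 of the 14 UMIs.

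**Figure D1:**
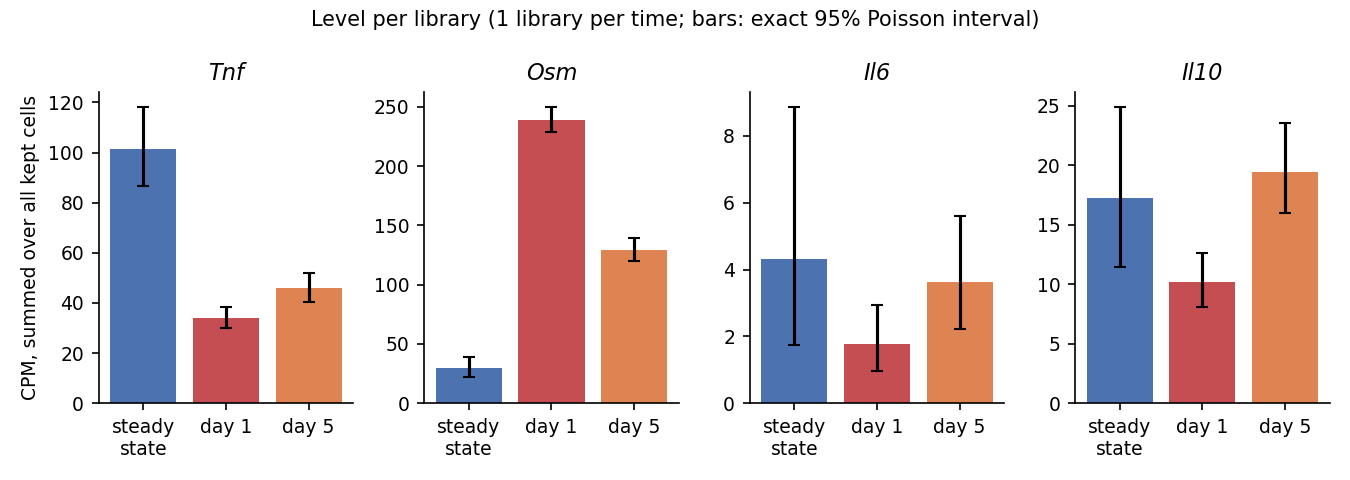
Level of each cytokine gene per library, in CPM summed over all kept cells, with 1 bar per library and exact 95% Poisson intervals; the axes of the 4 panels differ in range. Tnf is highest at steady state (102 CPM) and Osm on day 1 (239 CPM), while the Il6 intervals overlap at all 3 times.

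**Figure D2:**
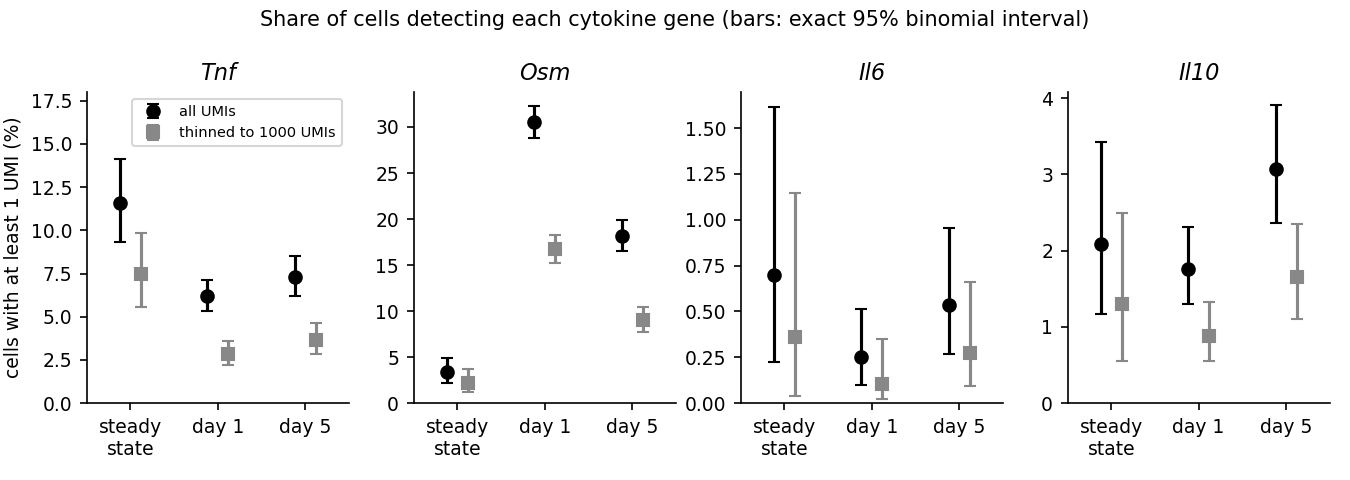
Percent of cells with at least 1 UMI of each gene per library, from all UMIs (circles) and in expectation after thinning each cell to 1000 UMIs (squares), with 95% binomial intervals. The intervals are exact for the circles, and for the squares they rest on expected counts rounded to whole cells. Thinning lowers every share but leaves Tnf highest at steady state (7.46%) and Osm highest on day 1 (16.7%).

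Cells that held more than 1 of the 4 cytokine messages were few. At least 1 was found in 117 cells at steady state (16.3%), 997 on day 1 (35.7%) and 537 on day 5 (26.2%). Exactly 2 were found in 8, 74 and 53 cells, 3 in 1, 5 and 3 cells, and all 4 in 0 cells of any library. Detection of a second gene rises with depth, and the cells with 1 of the 4 genes were deeper than those with none (median 3263 against 2152 UMIs on day 1).

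Tnf and Osm were found together in few cells. On day 1, Osm was found in 61 of 173 Tnf-positive cells (35.3%, 28.2 to 42.9) and in 30.2% (28.4 to 32.0) of Tnf-negative cells. On day 5 the shares were 25.3% (18.6 to 33.1, 38 of 150 cells) and 17.6% (15.9 to 19.4), and at steady state 8.43% (3.46 to 16.6, 7 of 83 cells) and 2.68% (1.57 to 4.25). At each time the intervals of Tnf-positive and Tnf-negative cells overlap. Thinned to 1000 UMIs, the day 1 order turned, with Osm in 14.4% of Tnf-positive and 16.8% of Tnf-negative cells, and the steady-state and day 5 order held, at 5.23% against 1.96% and 12.7% against 8.90%.

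Tnf was found in a larger share of Il10-positive than of Il10-negative cells in each library. It was present in 8 of 49 Il10-positive cells on day 1 (16.3%, 7.32 to 29.7) against 6.01% (5.15 to 6.97) of the others. On day 5 it was present in 10 of 63 (15.9%, 7.88 to 27.3) against 7.04% (5.96 to 8.26), and at steady state in 3 of 15 (20%) against 11.4%. The intervals of day 1 do not overlap and those of the other times do. Thinning kept the order at both injury times, with overlapping intervals (5.24% against 2.82%, and 7.38% against 3.61%), and turned it at steady state (4.32% against 7.51%). The intervals after thinning rest on expected counts rounded to whole cells. Osm showed no such order in Il10-positive cells, at 34.7% against 30.4% on day 1 and 15.9% against 18.2% on day 5. Il6-positive cells held Tnf in 0 of 5 cells at steady state, 0 of 7 on day 1 and 1 of 11 on day 5.

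**Figure D3:**
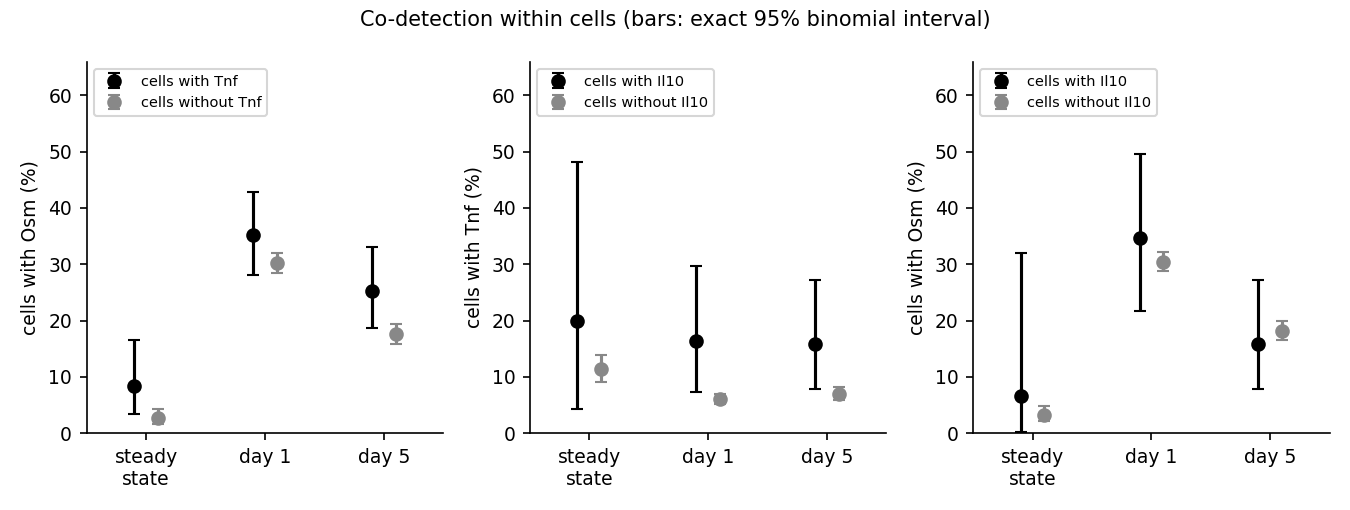
Percent of cells with a second cytokine gene among cells with (black) and without (grey) a first one, per library, from all UMIs, with exact 95% binomial intervals. Tnf stands higher in Il10-positive than in Il10-negative cells on day 1 (16.3% against 6.01%), while Osm in Il10-positive cells lies near the level of the other cells at both injury times.

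The 3 libraries were clustered together without the 4 genes or their pathway lists, which gave 13 clusters, so the level of the 4 genes could be set side by side between them. A cluster was named only from marker genes. Named were an epineurial macrophage-like cluster (cluster 1, led by Cd209f and Cd209g), a cycling cell-like (cluster 7), a dendritic cell-like (cluster 8) and a monocyte-like cluster (cluster 13, led by Lrg1, Hp and Vcan), and the others go by number and leading genes. Dendritic cells and monocytes can also make these cytokines, and no cluster was named as a cell type that should lack them. Cluster 2 was led by Dcn, Apod and other matrix genes, but 11 of its 717 cells held a fibroblast marker and 99.9% a core macrophage gene, so it did not serve as such a type. The level given by free RNA was not measured.

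At steady state Tnf, Osm and Il10 differed between the main clusters, while Il6 had 4 UMIs in one and 0 in the other. Tnf was 5.08-fold (2.75 to 10.4) higher in cluster 5, led by Lilra5 and Hpgd, than in the epineurial macrophage-like cluster, at 133 CPM (112 to 156) against 26.1 CPM (13.1 to 46.8). Osm was also higher in cluster 5, at 38.4 CPM against 7.13 CPM, the latter from 3 UMIs (ratio 5.39, 1.72 to 27.2). Il10 ran the other way, at 9.15 CPM in cluster 5 against 40.4 CPM in the epineurial macrophage-like cluster, 4.42-fold higher in the latter (1.91 to 10.8). Cluster 5 held 67.5% of the steady-state cells and 87.9% of the Tnf UMIs, whereas the epineurial macrophage-like cluster gave 17 of the 28 Il10 UMIs, from 8 cells.

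On day 1, Tnf stood out in cluster 9, led by Mt2 and Stard6. Its 10 leading genes also held Ccl12 and Ch25h, from the marker list of endoneurial macrophages, and Lyve1, from that of epineurial macrophages. Its 122 cells were 4.37% of the library and gave 26.2% of the Tnf UMIs. Tnf was at 190 CPM there (149 to 240) and at 26.4 CPM in the rest of the library, a ratio of 7.22 (5.43 to 9.51), and 29.5% of the cells detected it. The core macrophage genes summed to 10140 CPM in cluster 9 and to between 12354 and 30029 CPM in the other day 1 clusters, and their part in the Tnf level was not tested. Among day 1 clusters of at least 50 cells, cluster 9 was the only one with a Tnf level above the 102 CPM of the whole steady-state library. Of these clusters Tnf was lowest in the monocyte-like cluster, at 5.16 CPM (1.41 to 13.2) from 4 UMIs in 184 cells, 7.20-fold below the rest (2.78 to 26.6) although those cells were the deeper ones (median 4197.5 UMIs).

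Osm was found in every day 1 cluster of at least 50 cells. It was highest in cluster 6, led by the interferon-response genes Rsad2 and Cxcl10, at 323 CPM (271 to 381), and in the monocyte-like cluster, at 316 CPM (278 to 358), whose intervals overlap. Cluster 12, led by Ppbp and Arg1, had 272 CPM (255 to 291) and gave 46.1% of the day 1 Osm UMIs. It was lowest in cluster 9, at 142 CPM (106 to 186), 1.72-fold below the rest of the library (1.31 to 2.30), which is still above the 38.4 CPM of steady-state cluster 5. The Osm interval of cluster 9 lies below those of cluster 6, cluster 12 and the monocyte-like cluster. It overlaps those of the other day 1 clusters of at least 50 cells, so the lowest place is not settled. So the monocyte-like cluster, among those poorest in Tnf, was rich in Osm, and cluster 9, richest in Tnf, was among those poorer in Osm. Cluster 10, led by Slpi and Ctsk, broke this reverse order, with Osm at 172 CPM (150 to 197) and Tnf at only 16.2 CPM.

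Il10 on day 1 was at 36.2 CPM (18.1 to 64.8) in cluster 3, from 11 UMIs in 4 cells, at 25.7 CPM (5.31 to 75.2) in cluster 2, from 3 UMIs, and at 24.1 CPM (11.0 to 45.8) in cluster 9, from 9 UMIs, with intervals that overlap. Il10 in cluster 9, found in 5 of its 122 cells, was above the rest of the library at 9.49 CPM (ratio 2.54, 1.12 to 5.10). It was nearly missing from cluster 10, led by Slpi and Ctsk, at 1.62 CPM from 2 UMIs in 457 cells, 7.26-fold below the rest (1.95 to 61.0). Over all libraries the cycling cell-like cluster had high Tnf, at 98.2 CPM (63.6 to 145), but low Osm, at 58.9 CPM (33.0 to 97.2). Its Il10 was high, at 43.2 CPM (21.6 to 77.3), from 11 UMIs in 4 of 66 cells. Of the 14 Il6 UMIs on day 1, 7 came from 2 cells of the monocyte-like cluster.

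On day 5 the 3 largest clusters were compared. Tnf was 62.3 CPM (46.7 to 81.5) in cluster 2, a cluster of shallow cells with a median of 1226 UMIs that was led by the matrix genes Dcn and Apod, 42.8 CPM (35.1 to 51.6) in cluster 3, led by Cd72 and H2-Aa, and 25.05 CPM (17.3 to 35.0) in cluster 4, led by Ccl8 and Gdf15. Cluster 2 was thus 2.49-fold above cluster 4 (1.59 to 3.94). Of its 623 day 5 cells, 8 held a UMI of a fibroblast marker and 100% held one of a core macrophage gene, and without those 8 cells Tnf was at 61.8 CPM (46.2 to 81.1). Osm was 118, 148 and 111 CPM in the same clusters, with cluster 3 at 1.33-fold cluster 4 (1.10 to 1.61). The Il10 values ran in the reverse order of Tnf, at 10.6, 17.7 and 23.6 CPM, with cluster 4 at 2.23-fold cluster 2 (1.04 to 5.31). Only those 2 clusters were separated by their Il10 counts. Cluster 3 over cluster 4 was 0.75 (0.47 to 1.22), and the interval of cluster 3 (12.9 to 23.6) overlaps that of cluster 2 (4.84 to 20.1, from 9 UMIs). The 62 day 5 cells of the epineurial macrophage-like cluster had Osm at 45.5 CPM (14.8 to 106), Tnf at 36.4 CPM and Il10 at 18.2 CPM, from at most 5 UMIs each. Cluster 3 also held 88 day 1 cells, and Osm was 221 CPM in these against 148 CPM in its day 5 cells.

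**Figure D4:**
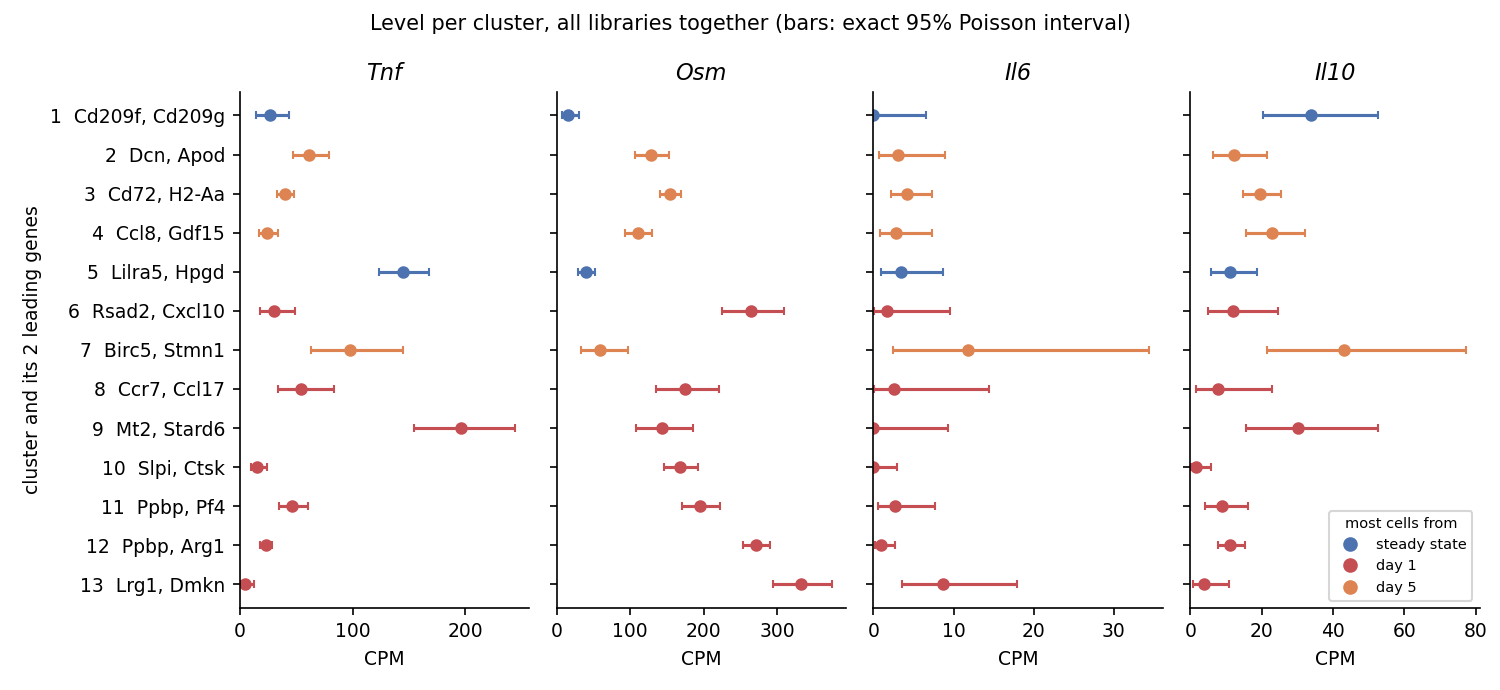
CPM of each gene in the 13 clusters, all libraries together, with exact 95% Poisson intervals; each cluster is labelled by its number and its 2 leading genes and coloured by the library that gives most of its cells. Tnf peaks in clusters 9 and 5, Osm in clusters 13, 12 and 6, and Il6 stays within wide intervals near 0.

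Across 15 units, each the cells of 1 cluster in 1 library (at least 50 cells), the genes whose level was most like that of Tnf were Tnfaip3 (Pearson r 0.86 of log2(CPM + 10)), Ccl12 (0.80) and Dynll2 (0.79), out of 4034 genes compared. Tnfaip3 is an NF-kappaB inhibitor that NF-kappaB induces, and Ccl12 is a monocyte-attracting chemokine. The genes most like Osm were Chd7 (0.96), Plaur (0.96), the receptor of the protease urokinase, and Nr4a2 (0.95), a nuclear receptor. Those most like Il10 were Fam173a (0.81), Akr1b3 (0.78) and Borcs6 (0.77), and Il6 had too few UMIs for the measure. Among the 4 genes, Tnf against Osm gave -0.24, Tnf against Il10 0.18 and Osm against Il10 -0.42. Units of one library share its depth and time, so these values describe the libraries and carry no test.

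Receptors and signalling genes were read from lists, and a gene was counted when it reached 10 CPM in either library and differed at least 2-fold. Of 13 genes of TNF reception and signalling, 0 were higher and 2 lower on day 1 than at steady state, where 16.7% and 14.8% of all genes were; the lower genes were Birc3 (89.8 to 26.4 CPM) and Nfkbia (1752 to 564 CPM, 3.10-fold lower, 2.96 to 3.25). The receptor Tnfrsf1a was at 186, 116 and 83.3 CPM, while Tnfrsf1b stood at 37.5, 63.9 and 68.7 CPM. On day 5 against steady state, of 12 genes, Nfkb1 was higher (30.1 to 62.4 CPM) and Tnfrsf1a and Nfkbia were lower, where 10.0% of all genes were higher and 11.0% lower. These day 5 shares of the list lie near those of all genes. Tnfaip3 had 91.1, 56.4 and 76.0 CPM, the same order of libraries as Tnf. The median log2 ratio of the list was -0.23 on day 1 and -0.32 on day 5, beside 0.12 and 0.01 over all genes.

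The main receptor chain of Osm was not detected in these cells. Osmr had 0 UMIs in all 3 libraries, which allows up to 1.85, 0.377 and 0.545 CPM. Lifr, the other chain that can pair with gp130, was at 67.1, 15.6 and 25.6 CPM, and Il6st itself was at 17.8, 16.7 and 24.7 CPM. Il6ra was at 102 CPM at steady state, 37.5 CPM on day 1 and 63.1 CPM on day 5. Of 10 genes of IL-6 family reception and signalling that reached 10 CPM, 3 were lower on day 1, where 14.8% of all genes were, namely Lifr, Il6ra and Socs3. The median log2 ratio of that list was 0.05, but -0.21 under median-of-ratios scaling and -0.62 with a minimum of 50 CPM, so it had no stable sign. Socs3, the feedback inhibitor that Stat3 induces, was 5.90-fold lower, at 891 CPM at steady state against 151 CPM, and Stat3 was at 83.7, 97.4 and 89.8 CPM. Of the 6 other ligands of the family none reached 10 CPM in any library: Lif was at 0, 1.88 and 0.364 CPM and Clcf1 at 0, 4.27 and 0.727 CPM.

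Of 9 genes of the IL-10 receptor and axis, 1 was higher and 3 lower on day 1, where 16.7% and 14.8% of all genes were. The higher one was Nfil3, a transcription factor that IL-10 induces, at 30.8, 152 and 94.7 CPM, and among the lower ones Etv3, another such factor, was at 84.9, 19.6 and 32.7 CPM. Maf, a factor that promotes Il10 transcription, was at 222, 125 and 130 CPM. The receptor chains Il10ra, at 44.3, 30.8 and 48.9 CPM, and Il10rb, at 332, 199 and 214 CPM, were found at all times.

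Most genes of the cytokine mRNA decay list were at least 2-fold lower after injury, and a link to the Tnf or Osm level was not tested. Of the 6 genes of cytokine mRNA decay, 0 were higher and 5 lower on day 1, with a median log2 ratio of -1.70, and 0 higher and 4 lower on day 5, with a median of -1.23. Of all genes, 14.8% were lower on day 1 and 11.0% on day 5. Zfp36 was at 1690, 471 and 459 CPM. Dusp1, a phosphatase that limits the kinase pathway acting on Zfp36, was at 4285, 1099 and 1231 CPM. Elavl1, which stabilises AU-rich messages, was not lower on day 1, at 65.2, 70.5 and 50.2 CPM. Immediate early and heat shock genes, which tissue handling is known to induce, were in sum also highest at steady state, like Zfp36 and Dusp1. Fos was at 6749, 1586 and 1826 CPM, Jun at 4020, 597 and 816 CPM, Egr1 at 1082, 115 and 268 CPM and Hspa1a at 853, 147 and 160 CPM. Their list of 8 genes, drawn up after the files were seen, summed to 23198, 5338 and 6597 CPM, and its part in the Tnf level was not tested.

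Among 20 other macrophage cytokines, 13 reached 10 CPM, of which 2 were higher and 4 lower on day 1, where 16.7% and 14.8% of all genes were, and 2 higher and 5 lower on day 5, where 10.0% and 11.0% were. The median log2 ratios were -0.72 and -0.73. With Tnf went Ccl3 (2071, 544 and 591 CPM) and Tnfsf9 (233, 65.9 and 123 CPM), the ligand of the T cell receptor 4-1BB. With Osm went Il1b (404, 1166 and 1045 CPM) and Il1rn, the natural blocker of the IL-1 receptor (20.9, 190 and 60.0 CPM). Scaling by median-of-ratios size factors in place of CPM would shift every log2 ratio by -0.26 for day 1 and by -0.12 for day 5 over steady state and by 0.14 for day 5 over day 1, which turned no direction of Tnf, Osm or Il10.

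Within each library, cells with and without a Tnf UMI were then compared, summed over cells. Ranked were genes with at least 50 CPM in the detecting cells and found in at least 10 of them. At steady state, the 5 such genes with the largest ratio were Ch25h (9.02-fold, 141 against 15.6 CPM), Sgce, Ets2, Mknk1 and the chemokine Cxcl1. On day 1 they were Orc6, the lectin Mgl2 (6.90-fold, 335 against 48.5 CPM), Lyve1 (4.67-fold), Slamf9 and Gpank1, of which Mgl2 and Lyve1 are genes of resident macrophages. On day 5 they were Cxcl1 (4.56-fold), the adhesion molecule Icam1 (3.92-fold), Npepps, the phosphatase Dusp2 (3.24-fold) and Tnfsf9 (3.21-fold, 332 against 103 CPM).

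The NF-kappaB feedback genes were higher in Tnf-positive cells at both injury times. Nfkbia was at 1217 against 513 CPM on day 1 (2.37-fold, 2.19 to 2.57) and at 1990 against 744 CPM on day 5 (2.67-fold, 2.49 to 2.87), but only 1.33-fold higher at steady state. Tnfaip3 was 2.29-fold higher on day 1 (1.75 to 2.97) and 2.22-fold on day 5 (1.70 to 2.86), against 1.16 at steady state (0.70 to 1.83). Nfkbia, Tnfaip3 and the chemokines below are taken from the pathway lists and were singled out after their values were seen. Ccl3 was 2.03-, 2.68- and 1.54-fold higher in Tnf-positive cells at steady state, day 1 and day 5, and Cxcl2 was 1.87-, 1.96- and 2.34-fold higher. Of the TNF list, 2 of 13 genes passed 2-fold upward on day 1 and 4 of 12 on day 5, where 6.98% and 8.07% of all genes did. At steady state 0 of 12 passed upward and 6 downward, with a median log2 ratio of -0.85, where 14.5% of all genes passed downward; each of the 6, among them Tnfrsf1b and Ripk1, had at most 3 UMIs in the Tnf-positive cells.

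Marker genes of other cell states also differed between Tnf-positive and Tnf-negative cells. Of the cycling genes that reached 10 CPM in either group, 6 of 8 were at least 2-fold higher in Tnf-positive cells on day 5. Of all genes, 8.07% were higher there. Ccnb2 and Cenpf, of these 8, stood at 8.55 and 8.36 CPM over the whole day 5 library. They thus reached 10 CPM through the Tnf-positive cells alone. The day 5 count depends in part on that filter and is not read as a result. On day 1, 6 of 6 were at least 2-fold higher, with a median log2 ratio of 3.34, although only Stmn1 (2.29-fold) met the minimum for ranking. The others stood at no more than 4.14 CPM over the whole day 1 library, so they reached 10 CPM through the Tnf-positive cells alone. Their day 1 ratios above 2 follow from that filter and are not a result. Of the epineurial markers, 7 of 12 were at least 2-fold lower at steady state, and of 11 on day 1, 5 were higher and 4 lower, where 6.11% of all genes were lower. Cd209b and Timd4 stood at 2.64 and 6.03 CPM over the whole day 1 library, so either could reach 10 CPM only through the Tnf-positive cells. The part of these marker genes in the ratios above was not tested.

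In Osm-positive cells, which were more numerous than Tnf-positive cells after injury, 0.94% of genes were at least 2-fold higher on day 1 and 2.64% on day 5. Under the same minimum of 50 CPM and 10 cells, the 5 leading genes on day 1 were Lrg1 (1.97-fold, 115 against 58.3 CPM), Idh1, the granule protease Prtn3, the IL-6 receptor gene Il6ra (1.80-fold, 52.3 against 29.1 CPM) and Trem1 (1.77-fold). On day 5 they were Tma16, the monocyte genes Hp (2.91-fold) and Ly6c2 (2.85-fold, 248 against 87.0 CPM), Eif4e3 and Phf3. Il1b was higher in Osm-positive cells at each time, 2.74-fold at steady state (2.09 to 3.54), 1.65-fold on day 1 (1.58 to 1.72) and 1.71-fold on day 5 (1.62 to 1.81). In Tnf-positive cells Il1b had ratios of 2.96 (2.49 to 3.50), 0.75 (0.68 to 0.82) and 1.20 (1.10 to 1.31).

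The feedback genes that were higher beside Tnf were not so beside Osm. Nfkbia had ratios of 1.03 (0.97 to 1.09) on day 1 and 0.91 (0.85 to 0.98) on day 5 in Osm-positive cells, and Tnfaip3 1.03 and 0.86, with intervals that include 1. The interferon-induced chemokine Cxcl10 was at 34.1 CPM in Osm-positive and 76.5 CPM in Osm-negative cells on day 1 (ratio 0.45, 0.35 to 0.56), although the Cxcl10-led cluster 6 had a high Osm level. Of the epineurial markers, 5 of 10 were at least 2-fold lower in Osm-positive cells on day 1 and on day 5, where 1.22% and 2.93% of all genes were. Of the monocyte markers 3 of 7 were higher on day 5, and of the cycling genes 7 of 8 were lower. Ccnb2 and Cenpf, of the cycling genes, stood at 8.55 and 8.36 CPM over the whole day 5 library. They therefore reached 10 CPM in 1 group only, so the cycling count depends in part on that filter.

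**Figure D5:**
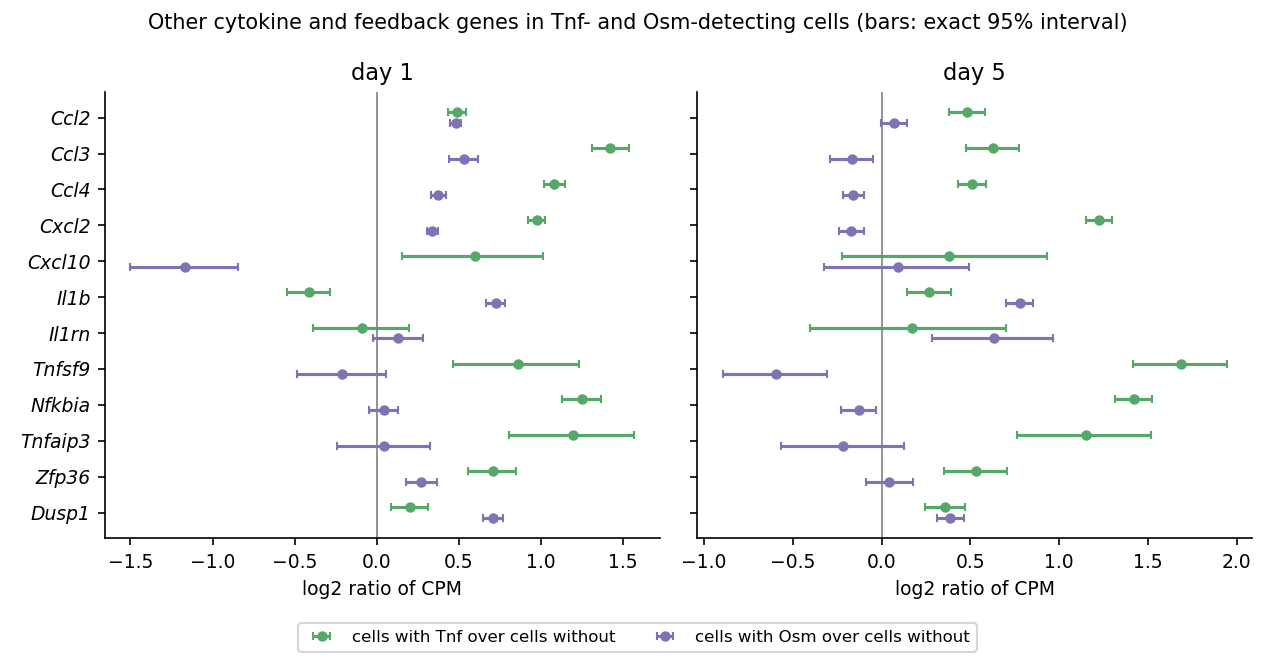
Log2 ratio of CPM between cells with and without Tnf (green) and between cells with and without Osm (purple), on day 1 and day 5, for 12 cytokine and feedback genes chosen after their values were seen, with exact 95% intervals for counting error. Nfkbia and Tnfaip3 lie above 0 for Tnf-positive cells and near or below 0 for Osm-positive cells, and Il1b lies above 0 for Osm-positive cells on both days.

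Il10-positive cells were few, 49 on day 1 and 63 on day 5, and their ratios are less precise. Under that minimum the leading genes on day 1 were Fh1 (5.45-fold, 3.78 to 7.64), Fam173b, Fam111a, Dcps and Celf2, and on day 5 Arhgap15 (4.01-fold, 2.49 to 6.18), Fcf1, Srd5a3, Naa10 and Nubp1, with none in common. Nfkbia was 2.63-fold higher on day 1 (2.30 to 2.99) and 1.52-fold on day 5 (1.34 to 1.73), and Tnfsf9 was 3.05-fold (2.07 to 4.34) and 2.15-fold higher (1.59 to 2.85). Tnf itself was at 92.8 CPM in Il10-positive and 44.2 CPM in Il10-negative cells on day 5 (2.10-fold, 1.24 to 3.36), and its ratio on day 1 was 1.56 (0.71 to 3.01). For Osm in Il10-positive cells the ratios were 1.0 (0.72 to 1.36) and 0.67 (0.40 to 1.07), with intervals that include 1.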

How the data were processed

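The deposited tables hold counts of UMIs per gene and cell barcode, not normalized. Cell Ranger 2.0.2 and build mm10 are named in the submitters' processing notes, and the labels name 10x chemistry version 1; for free-RNA handling and barcode calling, nothing is given in the sources used here. Barcodes with under 200 genes or over 10% mitochondrial UMIs were left out (6 of 5586), as were 18 doublets called with scrublet. That caller marked 0.323% of cells, so doublets were in effect not removed, and cells above the 95th percentile of UMIs were left out as an alternative. UMIs were summed per library or cluster and divided by total UMIs (CPM), with exact Poisson, conditional binomial and Clopper-Pearson 95% intervals; 0 counts were replaced by 3. Clusters came from scanpy 1.11.5 (2000 variable genes, 30 components, 15 neighbours, Leiden resolution 1). A name needed 3 markers at least 2-fold up, 2 of them among the 10 leading genes and in 5% of cells, a rule set after the clusters were seen. The ratio intervals were tried on simulated counts drawn from the Poisson model that they assume. UMIs clumped within cells were not simulated, so that trial cannot show how the intervals hold for these data. The genes named are, per list and comparison, up to 3 with the largest ratio at 50 CPM or more, the 3 genes most like each cytokine gene, the 5 leading genes of detecting cells, and those stated as singled out; list genes given by level alone were chosen for their roles. The 4 genes and the lists were chosen with earlier results of these data known. A result of the IL-6 family list is not reported here.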

Additional observations from a re-analysis of the deposited data

How the results depend on the processing

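Each time is 1 library, so differences between animals, injury and library cannot be told apart, and depth limits Il6 and Il10 most. No paired analysis was possible because each group has 1 library. Over 219 recalculations of 72 values, 199 stayed within the main value's interval, 20 moved beyond it and 0 turned a direction that the interval had fixed; leaving out dendritic and cycling cell-like clusters, using all barcodes or averaging per-cell CPM moved none. The log2 ratio of Osm levels for day 5 over day 1 was -0.75 under median-of-ratios scaling. With at least 2 UMIs required, log2 ratios of shares were -1.66 (Tnf, day 1 over steady state), -1.09 (Tnf, day 5 over steady state), 0.57 (Tnf, day 5 over day 1) and -0.94 (Osm, day 5 over day 1). Thinning gave -1.34 at 500 and -1.39 at 1000 UMIs for Tnf on day 1, -1.07 at 2000 UMIs for Tnf on day 5, both over steady state, and -0.93 at 500 UMIs for Osm, day 5 over day 1. Osm in Tnf-positive day 1 cells was 29.1% at 2000 UMIs, and Osm in Il10-positive steady-state cells 0% without the deepest cells. The highest Osm level of a cluster was 264 CPM at resolution 0.5. With a minimum of 50 CPM, list medians were -0.62 (IL-6 family, day 1), -1.43 (decay, day 5), both over steady state, and 0.41 (TNF, day 5 over day 1). Under median-of-ratios scaling they were -0.998 (IL-10 axis), -1.96 (decay) and -0.98 (other cytokines) for day 1 over steady state, and 0.38 (decay) and -0.091 (other cytokines) for day 5 over day 1. The scaling moves were a uniform shift; the cause of the others was not tested.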
